A study of Mus musculus with 27 samples.

Results

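The VEGF and angiopoietin system of the infarcted heart was followed through 10 genes. They were the ligands Vegfa, Vegfb and Vegfc, the VEGF receptors Flt1, Kdr and Flt4, the co-receptor Nrp1, the angiopoietins Angpt1 and Angpt2, and their receptor Tek. The genes were chosen by symbol, with earlier results of these data known. All 10 were found among the 27304 genes of the count table and passed the filter on low counts in every comparison. All mice were male, carried the genotype ApoE-/- on the C57BL/6J strain, ate a western type diet for 4 weeks and then had a myocardial infarction (MI). In the chronic kidney disease (CKD) group adenine, which damages the kidney, was added to that diet at 0.3% for 10 days and at 0.15% for 11 days, of which 4 fell before MI. The controls ate the same diet without adenine, and no group was free of ApoE deletion, western diet or infarction. Bulk RNA sequencing of tissue taken 7 days after MI gave 4 groups, with 6 control and 8 CKD libraries of remote myocardium and 6 control and 7 CKD libraries of infarct tissue. The libraries came from 14 mice, of which 13 gave both regions.

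VEGF-A is the main growth and permeability signal for blood vessel endothelium and acts through the kinase receptor KDR, with NRP1 as co-receptor. FLT1 binds VEGF-A and VEGF-B with high affinity and can hold VEGF-A away from KDR, while VEGF-C acts through FLT4 and is best known for lymphatic vessels. In the heart, cardiomyocytes are a main source of VEGF-A and VEGF-B. ANGPT1 activates the endothelial receptor TEK and keeps vessels quiet, and ANGPT2, made by activated endothelium, can oppose it.

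Library totals ran from 14255456 to 42566498 counts, and levels below are counts scaled to library size (CPM) after TMM scaling, which are not corrected for gene length, so levels are compared between libraries and not between genes. The 10 endothelial and 12 cardiomyocyte markers used to check the tissue were all detected in each group. A marker score is the mean log2 CPM of a list. For cardiomyocytes the score was 12.19 ± 0.39 (mean ± SD) in the 6 control and 12.52 ± 0.13 in the 8 CKD remote libraries, against 9.86 ± 1.25 in the 6 control and 11.62 ± 0.66 in the 7 CKD infarct libraries. Control infarct scores ran from 7.63 to 10.72 and CKD infarct scores from 10.78 to 12.66, so the diets did not overlap in infarct tissue. The endothelial score varied less, from 6.38 ± 0.13 in control remote to 5.93 ± 0.16 in control infarct and 5.99 ± 0.18 in CKD infarct libraries. Of the CKD infarct libraries, that of mouse 9179 had a cardiomyocyte score of 12.66, above the highest remote score of 12.65, and a fibroblast score of 5.58, below the lowest remote score of 5.78, and that of mouse 9172 had a cardiomyocyte score of 12.27. A score of 5 atrial markers was 6.01 in the infarct library of mouse 9179, against 0.41 to 2.18 in the other infarct libraries. Remote libraries had atrial scores from -0.35 to 5.64, and the part of atrial tissue was not tested. Among the remote libraries, control mouse 9180 had the lowest cardiomyocyte score, 11.43, and the highest fibroblast score, 8.35. For the remote library of mouse 9179 the title says CKD and the treatment label control, and it was counted as CKD. In bulk tissue, fewer cells of a type and less RNA per cell cannot be told apart.

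Of the 10 genes, 8 have a promoter window in the RefSeq table of build GRCm38.p6, from 250 bases before to 50 bases after the start of the gene. Angpt1 and Angpt2 have no entry. The windows of Vegfa, Vegfb, Kdr and Flt1 are shown because these 4 genes had the largest falls of the 10 from remote to infarct tissue in control mice. All 4 lie on the minus strand, at chr17:46032328-46032627 for the more upstream of the 2 listed Vegfa starts, chr19:6987602-6987901 for Vegfb, chr5:75978406-75978705 for Kdr and chr5:147725962-147726261 for Flt1. Capitals mark matches, on either strand, to the hypoxia response core (ACGTG or GCGTG), the GC box (GGGCGG) and the ETS core (AGGAAG or CGGAAG), and no matches overlap in these windows.
Vegfa: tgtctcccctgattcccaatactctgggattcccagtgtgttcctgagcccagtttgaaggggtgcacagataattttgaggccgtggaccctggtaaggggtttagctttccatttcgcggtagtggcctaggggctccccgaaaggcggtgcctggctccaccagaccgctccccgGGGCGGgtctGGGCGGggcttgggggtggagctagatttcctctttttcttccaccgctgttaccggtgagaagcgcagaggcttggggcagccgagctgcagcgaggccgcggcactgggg
Vegfb: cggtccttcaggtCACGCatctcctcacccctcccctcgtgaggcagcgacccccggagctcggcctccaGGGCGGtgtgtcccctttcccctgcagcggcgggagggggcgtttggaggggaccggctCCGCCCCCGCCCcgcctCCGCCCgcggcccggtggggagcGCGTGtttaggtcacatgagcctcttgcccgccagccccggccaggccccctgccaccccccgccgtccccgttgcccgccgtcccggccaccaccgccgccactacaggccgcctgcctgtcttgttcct
Kdr: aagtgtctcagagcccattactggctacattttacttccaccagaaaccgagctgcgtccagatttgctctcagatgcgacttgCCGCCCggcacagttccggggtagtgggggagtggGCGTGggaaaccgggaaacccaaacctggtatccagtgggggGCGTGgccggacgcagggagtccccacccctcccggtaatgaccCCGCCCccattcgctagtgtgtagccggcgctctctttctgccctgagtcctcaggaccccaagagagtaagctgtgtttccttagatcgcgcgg
Flt1: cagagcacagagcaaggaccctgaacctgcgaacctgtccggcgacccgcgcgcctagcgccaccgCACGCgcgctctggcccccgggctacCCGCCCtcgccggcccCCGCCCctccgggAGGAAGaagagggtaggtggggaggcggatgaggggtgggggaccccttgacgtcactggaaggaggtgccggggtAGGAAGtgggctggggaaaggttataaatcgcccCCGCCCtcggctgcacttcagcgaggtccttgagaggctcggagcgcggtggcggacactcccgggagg
The GC box occurred 2 times in the Vegfa window, 4 times in Vegfb, 2 times in Kdr and 3 times in Flt1. The hypoxia response core occurred 2 times in Vegfb, 2 times in Kdr and 1 time in Flt1. It was not in this Vegfa window but occurred 2 times in the window of the other Vegfa start. The ETS core occurred 2 times, in Flt1 only among these 4 windows. Nrp1 and Tek also fell in both diets, and their windows are not shown. That of Nrp1 held each of the 3 motifs 1 time, and that of Tek held 0 matches to any of them. Of all 32851 promoter windows in the table, 43.8% hold the hypoxia response core, 35.7% the GC box and 46.5% the ETS core, so these matches are common letters and describe the windows without marking a bound site.

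The first comparison asked how the 10 genes differ between infarct and remote tissue. In control mice Vegfa, Vegfb, Kdr, Flt1, Nrp1 and Tek were lower and Angpt2 and Vegfc higher in infarct tissue, 8 of 10 genes, where 63.9% of all 14770 genes tested were called, 30.7% higher and 33.2% lower (edgeR quasi-likelihood test, Benjamini-Hochberg adjusted p under 0.05). In CKD mice 7 genes were lower, the same 6 and Angpt1, and Angpt2 alone was higher, against 45% of all genes, 24.7% higher and 20.2% lower. Flt4 was called in neither diet. The median log2 fold change of the 10 genes was -0.79 in control and -0.59 in CKD mice, and that of all genes was -0.01 in both. Beside these changes all 12 cardiomyocyte markers were called lower in control mice, with a median of -2.15. In CKD mice all 12 stood below 0, with a median of -0.83. There edgeR called 2 of them (Ckm and Myh6) and DESeq2 5, and the Ckm call was lost in 9 of 15 edgeR fits without 1 library. All 10 fibroblast markers and all 8 macrophage markers rose in both diets, with medians of 2.04 and 2.21 in control and 1.74 and 2.24 in CKD mice. The summed level of the fibroblast markers went from 1335 to 13600 CPM in remote to 27155 to 54577 CPM in infarct libraries of control mice, and from 1189 to 2108 CPM to 1078 to 33525 CPM in CKD mice, with none of the markers at 0. The part of these cell types in the results was not tested. With mouse as a block the same number of the 10 genes was called in each diet.

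Among the ligands, Vegfa lay between 199.1 and 474.7 CPM (median 321.7) in control remote libraries and between 35.6 and 178.6 CPM (median 98.9) in control infarct libraries. In CKD mice it lay between 238.7 and 543.8 CPM (median 336.3) in remote and between 100.4 and 317.0 CPM (median 175.7) in infarct libraries. The control regions did not overlap, while in CKD mice the infarct libraries of mice 9172 and 9179 reached into the remote range. The log2 fold change from remote to infarct was -1.78 ± 0.33 (SE, adjusted p = 6.73e-05) in control and -0.90 ± 0.29 (adjusted p = 0.0146) in CKD mice. Within hearts Vegfa was lower in the infarct in 6 of 6 control and 7 of 7 CKD mice.

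Vegfb, a ligand of FLT1 linked to the fatty acid supply and vessels of heart muscle, had the largest change of the 10 genes in control mice. Its level was 198.7 to 431.9 CPM (median 348.9) in control remote and 32 to 112.3 CPM (median 98.8) in control infarct libraries. CKD remote libraries held 334.8 to 436.9 CPM (median 388.5) and CKD infarct libraries 108.9 to 420.6 CPM (median 154.7). Every control infarct library was below every remote library of either diet, and the highest CKD infarct value, in mouse 9179, was within the remote range. The change was -2.06 ± 0.30 (adjusted p = 1.27e-05) in control mice and -0.86 ± 0.26 (adjusted p = 0.0102) in CKD mice.

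Vegfc went the other way, on a small scale. It measured 7.60 to 12.6 CPM (median 12.2) in control remote and 11.7 to 15.5 CPM (median 13.5) in control infarct libraries. In CKD hearts it measured 7.28 to 12.5 CPM (median 9.57) in remote and 7.89 to 11.6 CPM (median 9.29) in infarct tissue. Vegfc was higher in the infarct in 6 of 6 control hearts and in 3 of 7 CKD hearts. The change passed the test in control mice (0.32 ± 0.13, adjusted p = 0.0426) and not in CKD mice (-0.06 ± 0.12, adjusted p = 0.721). In control mice the call was lost when the remote library of mouse 9183 or 9184 or the infarct library of mouse 9180, 9182 or 9183 was left out, with adjusted p up to 0.127.

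Kdr, the main signalling receptor for VEGF-A, had 226.2 to 394.4 CPM (median 324.3) in control remote and 64.4 to 152.0 CPM (median 119.7) in control infarct libraries. In CKD mice the values were 257.0 to 380.7 CPM (median 321.5) and 91.5 to 257.6 CPM (median 136.7). The control regions were apart, and the CKD regions met only at the highest infarct library, that of mouse 9172. Kdr fell by 1.52 ± 0.23 on the log2 scale in control mice (adjusted p = 1.52e-05) and by 0.99 ± 0.20 in CKD mice (adjusted p = 6.13e-04), in 6 of 6 and 7 of 7 hearts.

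Flt1, the high-affinity receptor of VEGF-A and VEGF-B, had 124.0 to 204.8 CPM (median 186.0) in control remote and 42.2 to 84.4 CPM (median 79.2) in control infarct libraries. In CKD mice it had 183.1 to 270.2 CPM (median 225.5) in remote libraries and 71.5 to 301.6 CPM (median 115.0) in infarct libraries. The value of 301.6 CPM belonged to mouse 9179 and was above every remote library. The changes were -1.29 ± 0.25 (adjusted p = 1.18e-04) and -0.67 ± 0.22 (adjusted p = 0.0192), and Flt1 was lower in the infarct in 6 of 6 control and 6 of 7 CKD hearts.

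Nrp1 had 82.7 to 158.5 CPM (median 148.3) in control remote and 66.5 to 94.8 CPM (median 79.9) in control infarct libraries, which overlapped through the remote library of mouse 9171. CKD remote libraries had 130.6 to 256.7 CPM (median 162.3) and CKD infarct libraries 68.5 to 219.5 CPM (median 125.2). Nrp1 fell by 0.79 ± 0.22 (adjusted p = 0.00321) in control and by 0.48 ± 0.20 (adjusted p = 0.0499) in CKD mice. The second call stood at the threshold and was lost when any of 10 of the 15 CKD libraries was left out (remote 9172, 9173, 9175, 9178 and 9179, infarct 9174 to 9178), with adjusted p up to 0.120. Of 8 other settings of the processing, the call held in 4. Those that lost it included DESeq2's size factors (adjusted p = 0.0529) and upper-quartile scaling (adjusted p = 0.0632).

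Flt4, the receptor for VEGF-C on lymphatic endothelium, had medians of 42 CPM in control remote, 36.8 CPM in CKD remote, 45.2 CPM in control infarct and 39.2 CPM in CKD infarct libraries. Its infarct libraries spread widely, from 31.4 to 77.7 CPM in control and from 22 to 65.7 CPM in CKD mice, against 37.2 to 46.8 CPM and 28.5 to 50.4 CPM in remote libraries. The groups overlapped throughout, and the changes were 0.19 ± 0.21 (adjusted p = 0.435) and 0.02 ± 0.19 (adjusted p = 0.939).

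Tek, the angiopoietin receptor of endothelium, had 65.9 to 93.4 CPM (median 74.0) in control remote and 39.9 to 58.3 CPM (median 52.7) in control infarct libraries, with no overlap. In CKD mice it had 67.6 to 92.2 CPM (median 77.8) and 36.9 to 77.6 CPM (median 57.0). It fell by 0.62 ± 0.15 (adjusted p = 7.18e-04) and by 0.51 ± 0.13 (adjusted p = 0.00377), in 6 of 6 and 7 of 7 hearts. In the same libraries 7 of 10 endothelial markers in control and 6 of 10 in CKD mice were lower, with median changes of -0.59 and -0.39. Of all genes 33.2% and 20.2% were lower. Tek was set against these markers within hearts, together with Kdr and Flt1.

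Of the angiopoietins, Angpt2 rose in both diets. It had 5.33 to 9.44 CPM (median 7.91) in control remote and 11.3 to 32.1 CPM (median 22.8) in control infarct libraries. CKD remote libraries held 4.51 to 9.63 CPM (median 6.59) and CKD infarct libraries 6.29 to 20.8 CPM (median 9.76). Every control infarct library was above every remote library, whereas 3 CKD infarct libraries lay within the remote range. Angpt2 rose by 1.55 ± 0.28 (adjusted p = 6.45e-05) in control and by 0.84 ± 0.25 (adjusted p = 0.0102) in CKD mice, in 6 of 6 and 6 of 7 hearts.

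Angpt1 had 4.03 to 15.1 CPM (median 9.46) in control remote and 4.61 to 7.06 CPM (median 5.34) in control infarct libraries. In CKD mice it had 13.1 to 24.6 CPM (median 19.2) in remote and 2.76 to 32.7 CPM (median 7.23) in infarct libraries, the highest again in mouse 9179. In 6 of the 7 CKD infarct libraries it was below every CKD remote library. The fall of 0.92 ± 0.36 in CKD mice passed the test (adjusted p = 0.0405). The call was lost when any of 9 of the 15 CKD libraries was left out (remote 9173, 9175, 9176 and 9179, infarct 9174 to 9178), with adjusted p up to 0.0928, and with the remote library of mouse 9179 counted as control (adjusted p = 0.0615). Without the infarct library of mouse 9179 the change was -1.54 (adjusted p = 4.64e-05), and without those of mice 9172 and 9179 it was -1.77 (adjusted p = 6.55e-06). The change of -0.79 ± 0.40 in control mice did not pass (adjusted p = 0.0867), and without the remote library of mouse 9180 it was -0.96 (adjusted p = 0.0385).

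**Figure D1:**
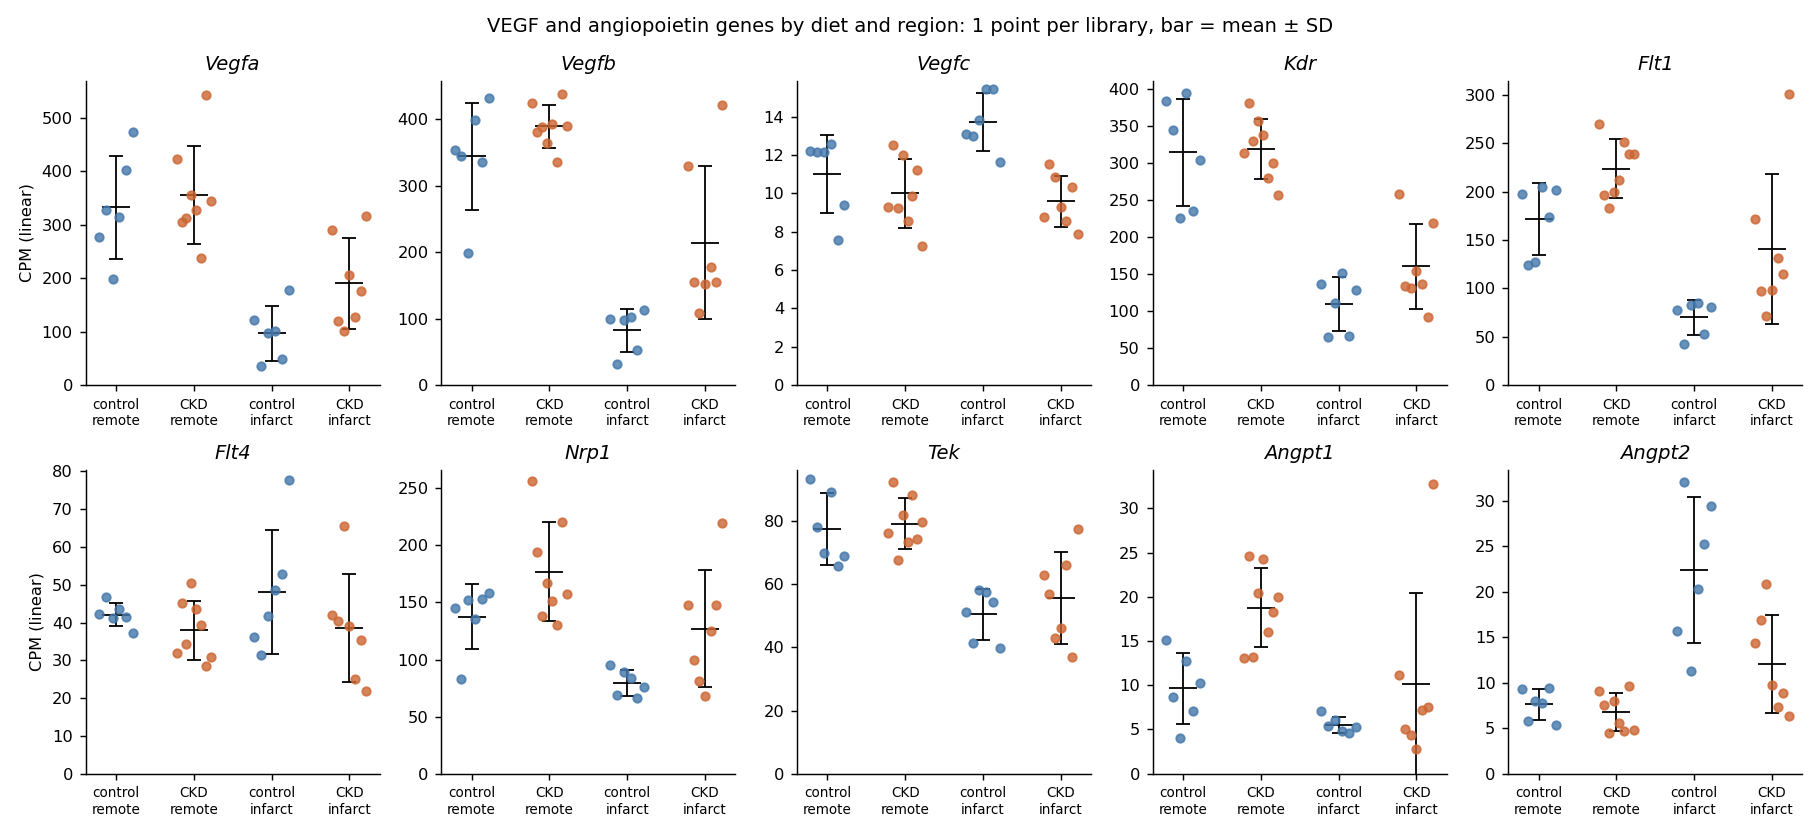
Level of each of the 10 genes in CPM on a linear axis from 0, with 1 point per library, and mean ± SD as bars, in 6 control remote, 8 CKD remote, 6 control infarct and 7 CKD infarct libraries. Vegfb and Kdr are high in both remote groups and low in control infarct tissue, and Angpt2 is highest in control infarct tissue, with 11.3 to 32.1 CPM.

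In the control comparison the libraries of the regions did not overlap for 6 of the 10 genes (Vegfa, Vegfb, Kdr, Flt1, Tek and Angpt2), where 33.5% of all genes did not overlap. In the CKD comparison there was 0 of 10, against 2.23% of all genes. Taking each heart on its own, 8 of 10 genes changed in the same direction in all 6 control hearts, against 58.7% of all genes, and 3 of 10 (Vegfa, Kdr and Tek) in all 7 CKD hearts, against 18.9%. The plot of differences within hearts shows these values. Without the infarct libraries of mice 9172 and 9179, 8 of the 10 genes were again called in CKD mice, with changes of -1.25 for Vegfa, -1.34 for Vegfb, -1.27 for Kdr and -1.09 for Flt1, against -0.90, -0.86, -0.99 and -0.67 with them.

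**Figure D2:**
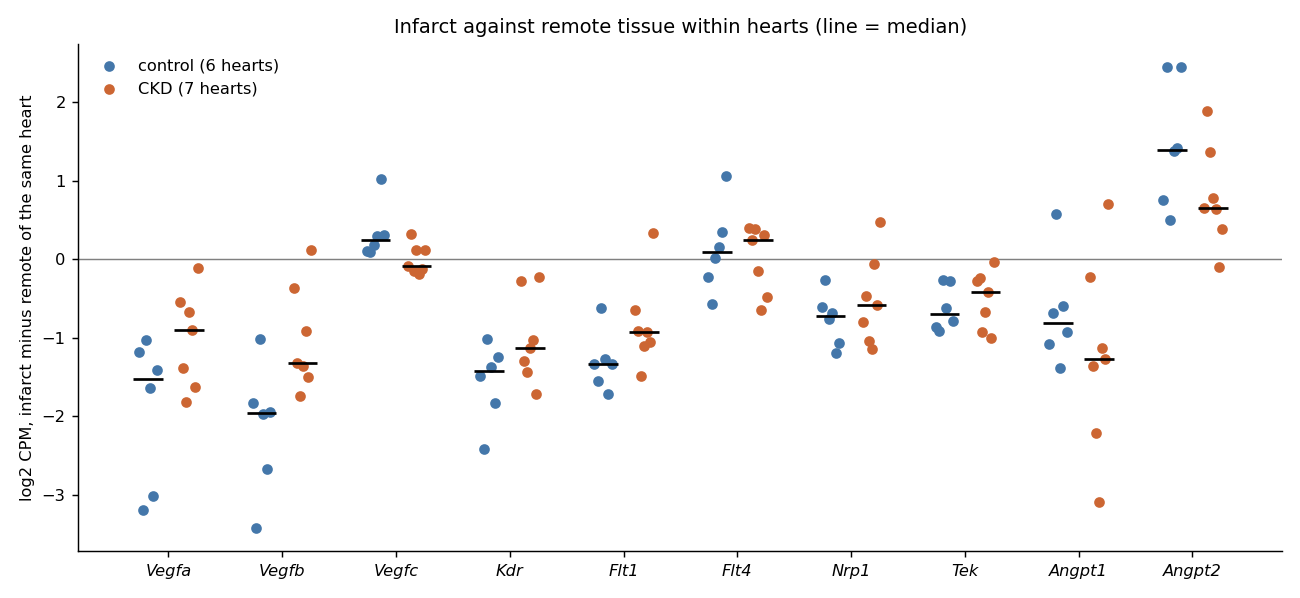
Difference in log2 CPM between infarct and remote tissue of the same heart for each gene, with 1 point per heart for 6 control and 7 CKD hearts and a line at the median. Vegfa, Kdr and Tek lie below 0 in all 13 hearts, and Angpt2 lies above 0 in 12 of them.

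The next comparison asked how CKD changed the 10 genes within infarct tissue. Vegfb and Flt1 were higher and Vegfc and Angpt2 lower in CKD infarcts, 4 of 10 genes, where 20.3% of 14358 genes were called, 13.1% higher and 7.14% lower. The median log2 fold change of the 10 genes was 0.57, against -0.02 for all genes. In the same libraries 6 of 12 cardiomyocyte markers were called higher in CKD, with a median log2 fold change of 1.497. The summed level of the 12 markers was 4932 to 32270 CPM in control and 32201 to 122276 CPM in CKD infarcts, and none of them was at 0. Of the other cell types, 2 of 10 fibroblast markers were lower, with a median of -0.95, and 0 of 8 macrophage markers passed in edgeR or DESeq2 or had an unadjusted p under 0.05, with a median of -0.47. Cardiomyocyte score and diet did not overlap in infarct tissue, so their parts in these results cannot be told apart.

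The largest of these changes was in Vegfb, at 1.32 ± 0.35 (adjusted p = 0.0345), from a median of 98.8 CPM in control to 154.7 CPM in CKD infarcts. Of the 7 CKD libraries, 6 were above the highest control library. Flt1 was higher by 0.96 ± 0.30 (adjusted p = 0.0402), with medians of 79.2 and 115.0 CPM. Vegfc was lower by a small and even amount, -0.55 ± 0.12 (adjusted p = 0.0345). It was the gene of the 10 whose infarct groups did not overlap, with all 7 CKD libraries at or below 11.6 CPM and all 6 control libraries at or above 11.7 CPM, and 6.64% of all genes did not overlap. Angpt2 was lower by 0.92 ± 0.31 (adjusted p = 0.0494), with medians of 22.8 CPM in control and 9.76 CPM in CKD infarcts and ranges that overlapped.

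The other 6 genes did not pass the test in edgeR. Vegfa had a change of 0.93 ± 0.37 (adjusted p = 0.0821), Nrp1 of 0.62 ± 0.22 (adjusted p = 0.0615), Kdr of 0.51 ± 0.26 (adjusted p = 0.157) and Angpt1 of 0.79 ± 0.46 (adjusted p = 0.209). DESeq2 called 6 of the 10, the same 4 with Vegfa (adjusted p = 0.0413) and Nrp1 (adjusted p = 0.0303), as did an edgeR fit of all 27 libraries, with adjusted p of 0.0183 and 0.0181. Over all genes DESeq2 called 4557 of 14358 and that fit 5067 of 14770, against 2908 in the main test. Within the 13 infarct libraries Vegfa passed in edgeR when the infarct library of mouse 9175 (CKD) or 9184 (control) was left out, and Nrp1 when that of CKD mouse 9175 or 9176 was. Flt4 stood at -0.35 ± 0.26 (adjusted p = 0.312) and Tek at 0.10 ± 0.16 (adjusted p = 0.670). The Angpt1 value came with the infarct library of mouse 9179, and it was 0.16 without that library and -0.10 without those of mice 9172 and 9179.

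These 4 calls depended on single libraries. Leaving out each of the 13 infarct libraries in turn gave 0 to 6 called genes among the 10, with 0 when the library left out was that of mouse 9171, 9182 or 9183 (control) or 9172 or 9177 (CKD). Of these 13 edgeR fits, 8 called Vegfb and 8 called Vegfc. Only 4 called Flt1 (adjusted p up to 0.0938) and 4 called Angpt2 (adjusted p up to 0.119). Of 9 other settings of the processing, Vegfb, Vegfc and Flt1 passed in 7 each and Angpt2 in 5. Without the infarct libraries of mice 9172 and 9179 the changes were 0.81 for Vegfb (adjusted p = 0.104), 0.50 for Flt1 (adjusted p = 0.134), -0.50 for Vegfc (adjusted p = 0.0855) and -0.87 for Angpt2 (adjusted p = 0.116). Adding the cardiomyocyte score to the fit gave 0.16, 0.07, -0.41 and -0.37 in that order, and edgeR called 0 of 14358 genes, 516 of them having an unadjusted p under 0.05. Adding the endothelial score instead gave 1.28, 0.94, -0.56 and -0.93, and Angpt2 alone no longer passed (adjusted p = 0.0671).

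**Figure D3:**
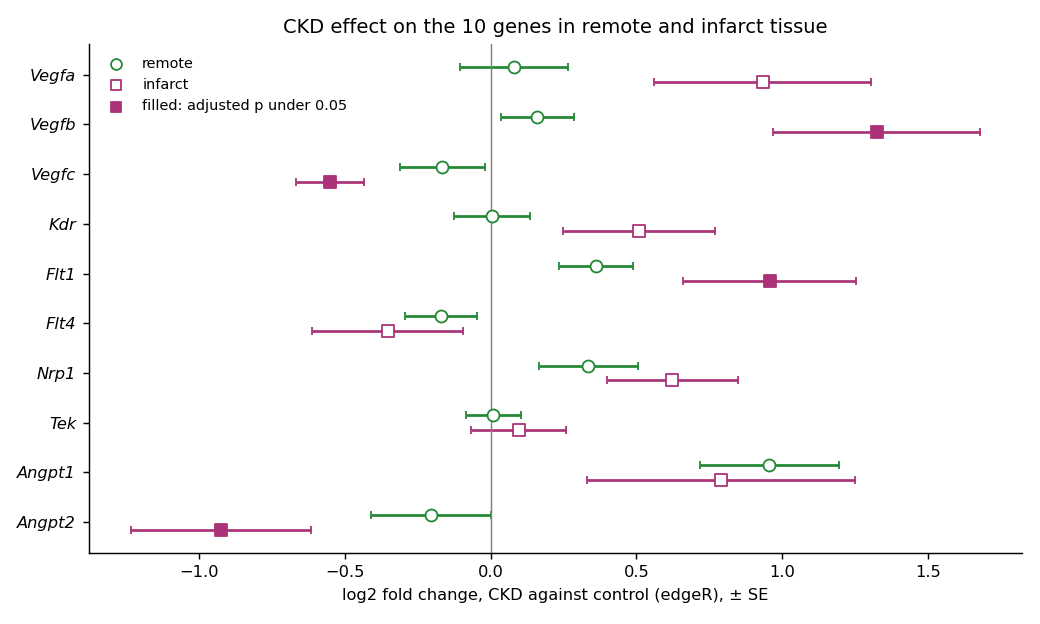
Log2 fold change of CKD against control for each gene, ± SE from edgeR, with circles for remote and squares for infarct tissue and filled symbols for an adjusted p under 0.05. Vegfb, Flt1, Vegfc and Angpt2 are filled in infarct tissue, and no gene is filled in remote tissue.

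In remote myocardium CKD changed 0 of the 10 genes at the threshold in edgeR, where 0.0216% of 13902 genes (3 genes) were called. Unadjusted p was under 0.05 for 2 of the 10, Angpt1 and Flt1, and for 1626 of the 13902 genes. Groups did not overlap for 0 of the 10 genes, against 0.259% of all genes. The median change of the 10 genes was 0.04, and that of all genes was 0.00. In the same libraries all 12 cardiomyocyte markers stood above 0 (median 0.25). All 10 fibroblast markers (median -0.65) and all 5 red-cell transcripts (median -1.42) stood below 0. Unadjusted p was under 0.05 for 2, 8 and 5 of them in that order, and edgeR called 0 of each. With the cardiomyocyte score added to the fit, edgeR called 0 of 13902 genes. The part of fibroblasts and red cells in the remote results was not tested. Angpt1 stood at 0.96 ± 0.24 (edgeR adjusted p = 0.236), at place 54 of 13902 genes by p. DESeq2 called 1 of the 10, Angpt1 (adjusted p = 0.021), as 1 of 97 genes. In single libraries Angpt1 was at 4.03, 7.05, 8.72, 10.2, 12.8 and 15.1 CPM in controls, and at 13.1, 13.2, 16.01, 18.3, 20.01, 20.5, 24.2 and 24.6 CPM in CKD mice. Thus 6 of 8 CKD libraries were above every control, and 5 of 6 controls were below every CKD library. With the remote library of mouse 9179 counted as control the change was 0.74 (adjusted p = 0.538), and without the remote library of mouse 9180 it was 0.80 (adjusted p = 0.250).

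The second gene, Flt1, stood at 0.36 ± 0.13 (adjusted p = 0.321) and Nrp1 at 0.33 ± 0.17 (adjusted p = 0.456). Over 9 other settings of the processing, covariates among them, the Flt1 change ran from 0.18 to 0.38. The remaining changes in remote tissue ran from -0.20 ± 0.21 for Angpt2 to 0.16 ± 0.12 for Vegfb. Kdr stood at 0.00 ± 0.13 and Tek at 0.01 ± 0.09, each within 1 SE of no change. In simulated data of this design, 77.6% of genes changed by a factor of 2 and 43.3% of genes changed by a factor of 1.5 were recovered, so smaller changes could be missed.

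Whether CKD acted differently in infarct and remote tissue was tested as a difference of the effects. In edgeR 0 of the 10 genes passed, against 0% of 14770 genes, of which 2787 had an unadjusted p under 0.05, among the 10 only Vegfb. Its difference was 1.19 ± 0.38 (adjusted p = 0.165), followed by Vegfa at 0.87 ± 0.43 (adjusted p = 0.265) and Angpt2 at -0.71 ± 0.38 (adjusted p = 0.313). DESeq2 called Vegfb, at 1.17 (adjusted p = 0.0454), as 1 of 600 genes. Simulated data of this design recovered 46.3% of genes whose effects differed by a factor of 2. An effect that passed in infarct and not in remote tissue is thus not shown to differ between them in edgeR.

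Ligand and receptor balance was examined within libraries, as the difference in log2 CPM between Angpt2 and Angpt1 and between each receptor and the endothelial score. Over 24 such tests the lowest adjusted p was 0.0823, so none passed. In remote tissue each of 14 libraries was also left out in turn. For CKD against control, Angpt2 minus Angpt1 then passed in 2 of 14 (exact permutation, lowest adjusted p = 0.0420). Nrp1 minus the endothelial score passed in 1 of 14 (exact permutation, adjusted p = 0.0466). The Angpt2 to Angpt1 difference was -0.25 ± 0.76 (mean ± SD) in the 6 control and -1.48 ± 0.54 in the 8 CKD remote libraries, a difference of -1.23 (exact two-sided permutation p = 0.0040, adjusted p = 0.0823). In infarct tissue it was 1.92 ± 0.72 (n = 6) and 0.57 ± 1.56 (n = 7), a difference of -1.35 (exact permutation p = 0.0635, adjusted p = 0.109). Within hearts it was higher in the infarct in 5 of 6 control mice, by 2.17 on average, and in 6 of 7 CKD mice, by 2.03. The control mouse that differed was 9180, whose remote library had the lowest Angpt1 level of its group.

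**Figure D4:**
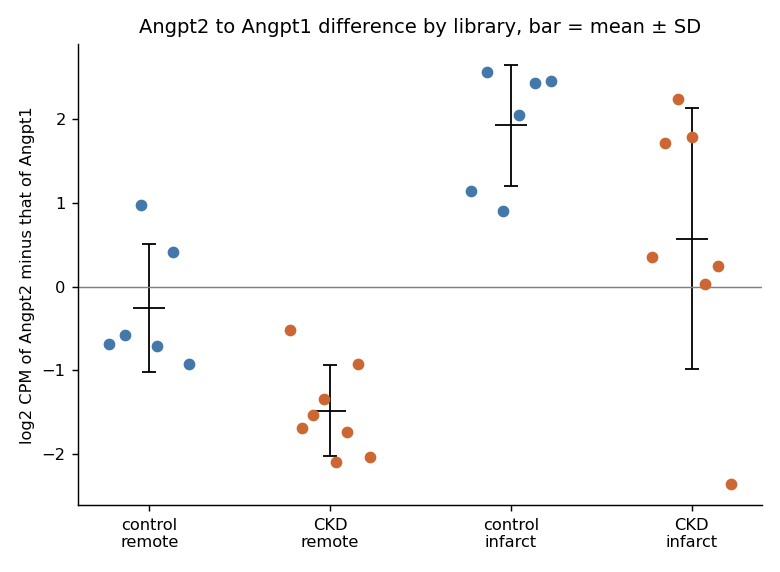
Log2 CPM of Angpt2 minus log2 CPM of Angpt1 in each library, with mean ± SD as bars. CKD remote libraries lie lowest, all below 0, and control infarct libraries highest, all above 0, while the CKD infarct library of mouse 9179 lies at -2.36.

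Receptor levels were also set against the endothelial score. Infarct minus remote differences were tested by flipping their signs over hearts. The infarct minus remote difference of Kdr relative to the score averaged -1.12 in control mice. It was below 0 in 6 of 6 hearts (exact sign-flip p = 0.0312, the smallest that 6 hearts allow, adjusted p = 0.0823). In CKD mice it averaged -0.75 and was below 0 in 7 of 7 hearts (exact sign-flip p = 0.0156, the smallest that 7 hearts allow, adjusted p = 0.0823). The same difference for Flt1 averaged -0.86, below 0 in 6 of 6 control hearts, and -0.56, below 0 in 6 of 7 CKD hearts. For Tek it averaged -0.18 in control hearts, above 0 in 2 of 6 (exact sign-flip p = 0.219, adjusted p = 0.276). In CKD hearts it averaged -0.24 and was below 0 in 7 of 7 (exact sign-flip p = 0.0156, the smallest that 7 hearts allow, adjusted p = 0.0823). Flt1 relative to the score was higher in CKD than in control infarcts by 0.85 (exact permutation p = 0.0117, adjusted p = 0.0823). In remote tissue it was higher in CKD by 0.47 (exact permutation p = 0.0343, adjusted p = 0.0823). Nrp1 relative to the score was also higher in CKD, by 0.43 in remote and 0.53 in infarct tissue (exact permutation p = 0.0190 and 0.0420, adjusted p = 0.0823 and 0.0915). Flt4 went the other way, at -0.10 and -0.39.

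Levels of several genes went with the cardiomyocyte score across infarct libraries, taken within each diet because the scores of the diets did not overlap, over 80 relations in all. In 7 CKD infarct libraries Vegfb had r = 0.96 (exact permutation p = 9.92e-04, adjusted p = 0.0397) and rho = 0.89 (exact permutation p = 0.0123, adjusted p = 0.222), and r = 0.88 without mice 9179 and 9175, the farthest from the median score. In the same libraries Flt1 had r = 0.94 (exact permutation p = 9.92e-04, adjusted p = 0.0397) and rho = 0.96 (exact permutation p = 0.0028, adjusted p = 0.222), and r = 0.83 without those mice. Vegfc ran the other way, with r = -0.90 (exact permutation p = 0.00694, adjusted p = 0.0889) and rho = -0.93 (exact permutation p = 0.00675, adjusted p = 0.222), and r = -0.83 without those mice.

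In 6 control infarct libraries Vegfb had r = 0.99 (exact permutation p = 0.0111, adjusted p = 0.0889) and rho = 0.83 (exact permutation p = 0.0583, adjusted p = 0.292). Without mice 9171 and 9183, the libraries with the lowest scores, r was 0.50 over 4 libraries. For Flt1 it went from 0.98 to -0.86, so the relations of Vegfb and Flt1 rest on those libraries. For Vegfa r went from 0.93 to 0.76 and for Kdr from 0.90 to 0.34, with adjusted p = 0.0889 (exact permutation) over all 6 for each. In CKD infarcts Vegfa had r = 0.89 (exact permutation, adjusted p = 0.0889), and 0.74 without mice 9179 and 9175. Vegfc had r = -0.08 (exact permutation p = 0.869, adjusted p = 0.895) in control infarcts, and whether the diets differ in this was not tested.

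**Figure D5:**
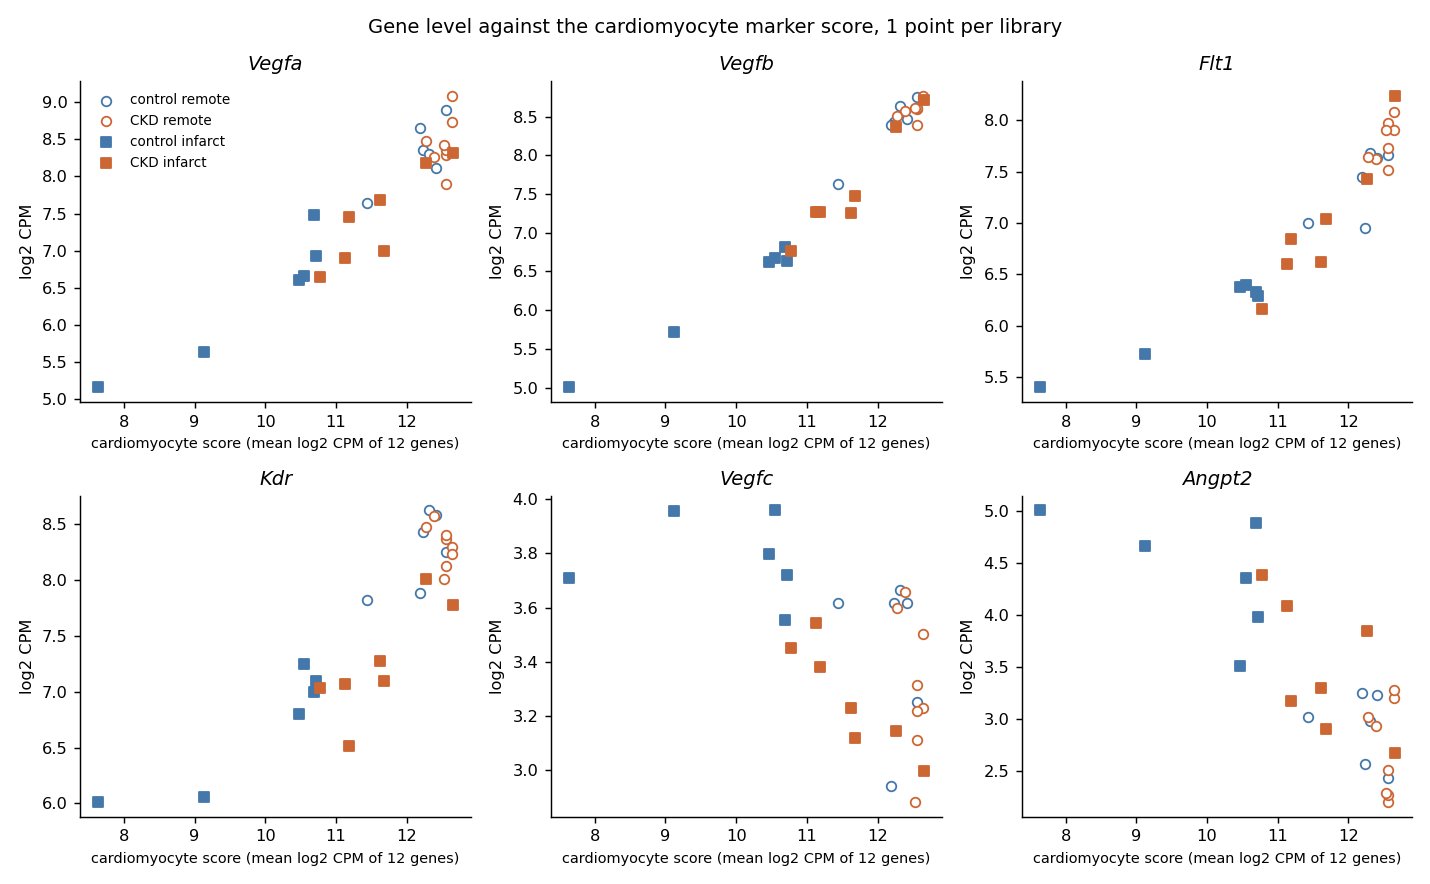
Log2 CPM of Vegfa, Vegfb, Flt1, Kdr, Vegfc and Angpt2 against the cardiomyocyte score, the mean log2 CPM of 12 genes, with 1 point per library, open circles for remote and filled squares for infarct tissue. The infarct libraries of CKD mice 9172 and 9179, with scores of 12.27 and 12.66, lie among the remote libraries in Vegfa and Vegfb.

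Among the 14 remote libraries, where the diets shared a range of scores, Flt1 had r = 0.78 with the cardiomyocyte score (permutation p = 4.5e-04, adjusted over 40 relations 0.0036) and rho = 0.79 (permutation p = 9.6e-04, adjusted 0.00768). It had r = 0.72 without mice 9180 and 9183. Within control and CKD libraries r was 0.71 and 0.59 and did not pass (exact permutation, adjusted p = 0.228 and 0.346). The 40 relations include those of pooled infarct libraries, where score and diet did not overlap, and libraries were permuted across diets. Angpt2 went with the endothelial score instead, with r = 0.80 (permutation p = 0.00103, adjusted 0.00589) and rho = 0.70 (permutation p = 0.00721, adjusted 0.0360). Its r was 0.86 without mice 9179 and 9173. Within control and CKD libraries it was 0.84 and 0.78 and did not pass (exact permutation, adjusted p = 0.160 and 0.160). Vegfb had r = 0.92 with the cardiomyocyte score (permutation p = 6.6e-04, adjusted 0.0044) and rho = 0.66 (permutation p = 0.0117, adjusted 0.0470). Its r was 0.57 without mice 9180 and 9183. Within control and CKD libraries its r was 0.98 and 0.52 and did not pass (exact permutation, adjusted p = 0.0889 and 0.403).

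The other 11 genes of both pathways were read beside the members. From remote to infarct tissue 5 rose and 2 fell in control mice, and 4 rose and 2 fell in CKD mice, with medians of 0.52 and 0.00. Of all genes 63.9% were called in control mice (30.7% higher, 33.2% lower) and 45% in CKD mice (24.7% higher, 20.2% lower). Vegfd, a further ligand of FLT4, rose by 2.28 ± 0.31 (adjusted p = 9.98e-06) in control and by 1.55 ± 0.27 (adjusted p = 1.73e-04) in CKD mice. Vash2, a vasohibin, rose by 2.55 ± 0.41 (adjusted p = 2.05e-05) and 2.06 ± 0.38 (adjusted p = 2.53e-04). Tie1, the partner receptor of TEK, fell by 0.81 ± 0.13 (adjusted p = 2.61e-05) and by 0.55 ± 0.12 (adjusted p = 9.82e-04). Angpt4, a further ligand of TEK at low levels here, rose by 1.58 ± 0.49 (adjusted p = 0.00666) and by 2.21 ± 0.47 (adjusted p = 8.87e-04). The fibroblast score went from 6.83 to 9.41 on average in control and from 6.14 to 8.19 in CKD mice between the same regions, and its part in the rises was not tested.

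In CKD infarcts 3 of the 11 were lower and 0 higher, with a median of -0.42, where 7.14% of all genes were lower and 13.1% higher. They were Vash2 (-1.32 ± 0.34), Ccbe1, which helps to activate VEGF-C (-0.91 ± 0.25), and Vash1, an endothelial inhibitor of angiogenesis (-0.79 ± 0.21), each at an adjusted p of 0.0345. With each of the 13 infarct libraries left out in turn, the calls of Vash2 and Vash1 were lost 5 times and that of Ccbe1 6 times. Vegfd stood at -0.95 ± 0.33 (adjusted p = 0.0570). In remote tissue edgeR called 0 of 10 tested genes, of which 2 had an unadjusted p under 0.05, and DESeq2 called 0. Of all 13902 genes tested there, 1626 had an unadjusted p under 0.05.

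Of 11 genes that respond to VEGF or mark tip cells, 5 rose and 1 fell from remote to infarct tissue in each diet. Of all genes 63.9% were called in control and 45% in CKD mice. In the test of CKD in infarct tissue 20.3% were called, 7.14% lower. Cxcr4, a chemokine receptor of tip cells and of leukocytes, rose by 2.41 ± 0.49 (adjusted p = 1.56e-04) in control and 2.61 ± 0.44 (adjusted p = 1.25e-04) in CKD mice. Plvap, which forms the diaphragms of fenestrated endothelium, rose by 1.77 ± 0.41 (adjusted p = 6.66e-04) and 1.88 ± 0.37 (adjusted p = 3.95e-04). Dll4, the Notch ligand of tip cells and arteries, fell by 1.22 ± 0.18 (adjusted p = 1.4e-05) and 0.98 ± 0.16 (adjusted p = 1.11e-04). Macrophage markers, 8 of 8 of which rose in both diets, moved with the genes that rose here, and their part was not tested. In CKD infarcts Unc5b, a netrin receptor of tip cells (-1.01 ± 0.31, adjusted p = 0.0402), and Nid2, a basement membrane protein (-0.74 ± 0.22, adjusted p = 0.0394), were lower, 2 of 11, and each call was lost with 8 of the 13 infarct libraries left out in turn.

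Among 13 genes of oxygen sensing and Vegfa regulation, 3 rose and 8 fell in control mice and 3 rose and 3 fell in CKD mice from remote to infarct tissue. The shares of all genes called were 63.9% and 45%. In the test of CKD in infarct tissue 13.1% of all genes were higher. Hif1a, the inducible hypoxia factor, rose by 0.96 ± 0.21 (adjusted p = 3.05e-04) in control and 0.78 ± 0.18 (adjusted p = 0.00186) in CKD mice. Epas1, a related factor of endothelium, fell by 1.24 ± 0.20 (adjusted p = 2.23e-05) and 0.79 ± 0.18 (adjusted p = 0.00148). In CKD infarcts 4 of 13 were higher, the nuclear receptor Esrra (1.07 ± 0.28, adjusted p = 0.0345), the oxygen sensor Egln1 (0.95 ± 0.27, adjusted p = 0.0361), the coactivator Ppargc1a (1.90 ± 0.59, adjusted p = 0.0407) and Egln3 (1.06 ± 0.33, adjusted p = 0.0411), which was named after its values were seen. Left out in turn, 5 of the 13 infarct libraries ended the call of Esrra, 7 that of Egln1 and 8 those of Ppargc1a and Egln3. The cardiomyocyte score was higher in the same CKD libraries, and its part and that of diet cannot be told apart. Hif1a stood at -0.46 ± 0.24 (adjusted p = 0.159).

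For each member the 3 genes with the most similar order over the 27 libraries were looked up among 13259 genes by Spearman's rho, as a description in which library and depth are shared. Vegfa ran with Slc38a3 (rho = 0.95), Inka2 and Pfkfb2, and Vegfb with Slc4a3 (rho = 0.98), Bag1 and Pxmp2. Flt1 ran with Gstk1 (rho = 0.97) and Syt7, and Kdr with Efr3b (rho = 0.95), Trib2 and Sox7. Tek ran with Npr1 (rho = 0.92), Ripply3 and She, and Nrp1 with 2510002D24Rik (rho = 0.94), Rwdd1 and Ktn1. For the remaining members the likeness was lower. Flt4 ran with Ackr2 (rho = 0.74) and Mmrn1, a lymphatic marker, and Vegfc with Gnb4 (rho = 0.81). Angpt1 ran with Pdzrn4 (rho = 0.89) and Angpt2 with Maoa (rho = 0.89).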

How the data were processed

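Infarct and remote heart tissue of 14 mice gave 27 bulk RNA libraries. The authors deposited whole-number counts per gene, made with kallisto 0.48.0 on build GRCm39, per the submitters' processing notes; how transcript estimates became gene counts, the annotation and strand use are not given in the sources used here. Groups came from titles and labels. The members, gene lists, tests and alternatives were chosen with earlier results of these data known. After filterByExpr and TMM scaling, genes were tested over the whole table with edgeR 4.0.16 (quasi-likelihood F test, R 4.3.3, Benjamini-Hochberg threshold of 0.05). CKD was tested within each region from that region's libraries, and region and the difference of effects in a fit of all 27. SE is the log2 fold change over the square root of F. Scores used log2 CPM with a prior count of 2. Differences within libraries were tested by exact permutation of libraries between diets, and by exact sign flips over hearts for infarct minus remote. Correlations were tested by permutation, exact within groups and with 100000 resamples for pooled remote libraries (scipy 1.17.1). Named genes were all members, per list and comparison the called genes with the 3 smallest p, and per member the 3 genes with the highest rho; a gene that this rule chose is not reported here. Replicates are separate mice, and both regions of 13 mice form pairs by design, whose deviations from the group means correlated at -0.10 to 0.40 (median 0.17, other mice -0.02). Chi-square over degrees of freedom was at least 9.03 in all 79 library pairs within groups, so none was a duplicate. The gene test was tested on simulated data, in which each gene was drawn independently around a common mean and a small set was changed. Recovery rates from it need not hold where many genes change together. Counts of the members ran from 71 (Angpt2) to 13669 (Kdr) per library. Alternatives were DESeq2 1.42.0 and its size factors, upper-quartile scaling, no filter or a mean of 1 CPM, a prior count of 0.5, marker scores as covariates, a mouse block, mouse 9179 as control, and leaving out libraries, which for the genes of the lists was added after seeing the data.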

Additional observations from a re-analysis of the deposited data

Results flagged for a closer look

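In 40 sets of libraries, 10 genes in 4 groups, the gap of the highest or lowest library to its neighbour was compared with the range of its group, and 2 sets stood out, where chance picks about 1 in 20. Vegfb in control remote tissue was lowest in mouse 9180 at 198.7 CPM, with the other 5 libraries at 336.2 to 431.9 CPM. That library also had the lowest cardiomyocyte score of the remote libraries, 11.43, and the part of this was not tested. Nrp1 in control remote tissue was lowest in mouse 9171 at 82.7 CPM, with the others at 135.3 to 158.5 CPM. Without that library the change of Nrp1 from remote to infarct tissue in control mice was still called.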

How the results depend on the processing

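Members called in CKD infarcts (4) numbered 0 without the infarct libraries of mice 9172 and 9179 and 0 with the cardiomyocyte score as a covariate, 6 in DESeq2, 6 in a fit of all 27 libraries, and 0 to 6 when single libraries were left out. All genes called there (2908) numbered 1926 without a filter, 4557 in DESeq2, 5067 in a fit of all 27 libraries, 0 without mice 9172 and 9179 (4064 at an unadjusted p under 0.05), 0 with the covariate (516 unadjusted), and 0 to 4651 with single libraries left out. In remote tissue the 3 genes called numbered 1 without a filter, 1 with mouse 9179 as control, 1 in the fit of all 27, 0 with the covariate, 97 in DESeq2, which called 1 member, and 1 to 6 with single libraries left out. For the difference of effects DESeq2 called 1 member and 600 genes, and edgeR 0 to 1 genes with single libraries left out. Members called between regions of CKD mice (8) numbered 5 to 8 with single libraries left out. With mouse as a replicate block 8, 8 and 0 members and 9764, 7200 and 0 genes were called in control mice, CKD mice and the difference, against 9437, 6644 and 0 without the block, which changed no call of a member.

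Some uncalled directions turned. In remote tissue Kdr was -0.0025 with upper-quartile scaling, and with the cardiomyocyte covariate Vegfa was -0.17, Vegfb -0.082 and Kdr -0.081. In infarct tissue the covariate gave Vegfa -0.19, Kdr -0.22, Tek -0.19 and Angpt1 -0.085, and leaving out mice 9172 and 9179 gave Tek -0.075 and Angpt1 -0.10. Leaving those out also gave Vegfc 0.048 between regions of CKD mice, Tek -0.053 in the difference of effects and Tek minus endothelial score -0.029 for CKD in infarct tissue. With mouse 9179 as control, Flt4 was -0.018 between regions of CKD mice and Angpt1 0.10 in the difference. With single libraries left out, remote values ran from -0.034 to 0.21 for Vegfa, -0.065 to 0.082 for Kdr and -0.032 to 0.064 for Tek. Between regions of CKD mice they ran from -0.11 to 0.014 for Vegfc and -0.16 to 0.15 for Flt4, and in the difference from -0.35 to 0.018 for Flt4 and -0.79 to 0.047 for Angpt1. The Kdr minus endothelial difference in remote tissue ran from -0.0078 to 0.18 and that of Tek in infarct tissue from -0.0068 to 0.12. The cause was not tested. In simulated data of the infarct comparison 49.3% of genes changed by a factor of 2 were recovered. Those data held few changed genes and no shared cardiomyocyte gradient, so this share is not the power of the real comparison.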

Other observations

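Genes of the cells around the vessels were read in the same way. Of all genes 63.9% were called between regions in control and 45% in CKD mice, and 20.3% between diets in infarct tissue. Of 8 pericyte markers, 1 rose and 5 fell from remote to infarct tissue in control mice, and 1 rose and 3 fell in CKD mice. Kcnj8, a potassium channel of pericytes and muscle, fell by 1.48 ± 0.25 (adjusted p = 2.9e-05) in control and by 0.81 ± 0.22 (adjusted p = 0.00559) in CKD mice, while Pdgfrb, which fibroblasts also express, rose by 0.97 ± 0.19 (adjusted p = 1.39e-04) and 0.50 ± 0.17 (adjusted p = 0.0206). In CKD infarcts Pdgfrb was the 1 of 8 called, lower by -0.75 ± 0.25 (adjusted p = 0.0467). That call was lost with 9 of the 13 infarct libraries left out in turn. Of 6 lymphatic endothelial markers, 2 rose and 1 fell from remote to infarct tissue in control mice, and 1 rose and 0 fell in CKD mice. Podoplanin (Pdpn), also a fibroblast gene, rose by 2.13 ± 0.39 (adjusted p = 6.04e-05) in control and by 1.87 ± 0.34 (adjusted p = 2.39e-04) in CKD mice. Prox1, the transcription factor of lymphatic identity, which heart muscle also expresses, fell by 1.25 ± 0.30 (adjusted p = 9.03e-04) in control mice. Ccl21a, a chemokine of lymphatic vessels, was called in control mice at 1.36 ± 0.52 (adjusted p = 0.0252), with a median of 78.4 CPM in infarct libraries and 399.9 CPM in that of mouse 9184. Without that library the change was 0.48 (adjusted p = 0.332), and in CKD mice it was 0.93 ± 0.46 (adjusted p = 0.0987). In CKD infarcts edgeR called 0 of the 6 against control, 1 of them had an unadjusted p under 0.05, and DESeq2 called 1. Of all 14358 genes, 5765 had an unadjusted p under 0.05 and DESeq2 called 4557. Of 10 endothelial markers, Erg alone was called in CKD infarcts, at -0.46 ± 0.14 (adjusted p = 0.0367), a call lost with 8 of the 13 left out in turn.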
